A study of Rattus norvegicus with 8 samples.

Results

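Autophagy and lysosome genes were compared in the rat epitrochlearis, a forelimb muscle rich in fast fibres, between rats that drank different protein sources after swimming. The list holds 37 genes, chosen by name for their part in the pathway. A gene was measured where a probe set of the array carried its symbol and no second symbol. By that rule 34 of the 37 genes were measured, by 55 of the 31042 probe sets tested, which name 14217 genes in all. Map1lc3b, Gabarapl2 and Nbr1 were present only on probe sets that carry several symbols and were not analysed here.

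Male Sprague-Dawley rats of 6 weeks of age practised swimming for 3 days, had a 5 g food ration on the eve of the experiment, and then swam for 2 h. Directly afterwards each rat was gavaged with a 44 kJ mixed meal, about 15% of a day's energy, of carbohydrate with an amino acid mixture (AAM, 4 rats) or of carbohydrate with whey protein hydrolysate (WPH, 4 rats), which is whey protein cut by enzymes into peptides. The comparison asks whether the hydrolysate leaves another expression profile in muscle than amino acids of the same composition. Each rat gave 1 Affymetrix array, and the labels call the 4 arrays of a meal biological replicates. All 8 rats had swum and been fed, so the arrays hold no resting or unfed state, and the labels give neither which rats shared a barrel nor when after the meal the muscle was taken.

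Macroautophagy encloses cytoplasm, protein aggregates or mitochondria in a double membrane and delivers them to the lysosome for breakdown. The Ulk1 kinase complex and the Becn1-Pik3c3 lipid kinase start the membrane, a ubiquitin-like conjugation system couples proteins of the LC3 and GABARAP families to it, receptors such as Sqstm1 tether cargo, and lysosomal cathepsins digest it. In skeletal muscle, fasting and contraction are known to induce the pathway, amino acids and insulin to restrain it through mTORC1, and FoxO factors to transcribe several of its genes.

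The deposited levels lie on a log2-like scale between 5.28 and 14.2, and arrays differ by very little: across the 8 arrays the median SD was 3.69 millionths of a unit. A deposited difference is therefore not a fold change. Values on single arrays are given here as deviations from the mean of that probe set over the 8 arrays, in millionths or thousandths of a deposited unit. The size of a difference between meals is given as the standardized difference, the mean of WPH less that of AAM in units of the SD within meals, with a 95% interval. Where a gene had several probe sets, the probe set with the highest mean level stands for it. The 6 general muscle fibre markers lay between 11.9 and 14.2, against an array median of 6.66, and the 4 measured neutrophil markers lay between 6.18 and 6.31.

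No autophagy or lysosome gene passed the test between the meals. By limma with Benjamini-Hochberg adjustment over all 31042 probe sets, 0 of the 55 probe sets of these genes were called, where the background was 0% of all probe sets. Their smallest adjusted p was 0.9998. At limma's unadjusted p below 0.05 there were 3 of the 55 (5.45%), beside 3.58% of all probe sets. The 4 WPH arrays did not overlap with the 4 AAM arrays for 2 of the 55 (3.64%), beside 2.23% of all, which is near the background. The split was 1 higher and 1 lower, beside 1.08% and 1.15% of all probe sets. By sign, 21 of the 34 genes were higher after WPH and 13 lower, where 46.1% of all named genes were higher, and the median standardized difference was 0.16 beside -0.06 over all genes. That split depends on the arrays and on centring: without AAM replicate 3 there were 13 of 34 higher, and with each array's median subtracted there were 8 of 34. For 28 of the 34 genes (82.4%) the meals differed by less than 1 pooled SD, beside 84.2% of all genes.

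**Figure D1:**
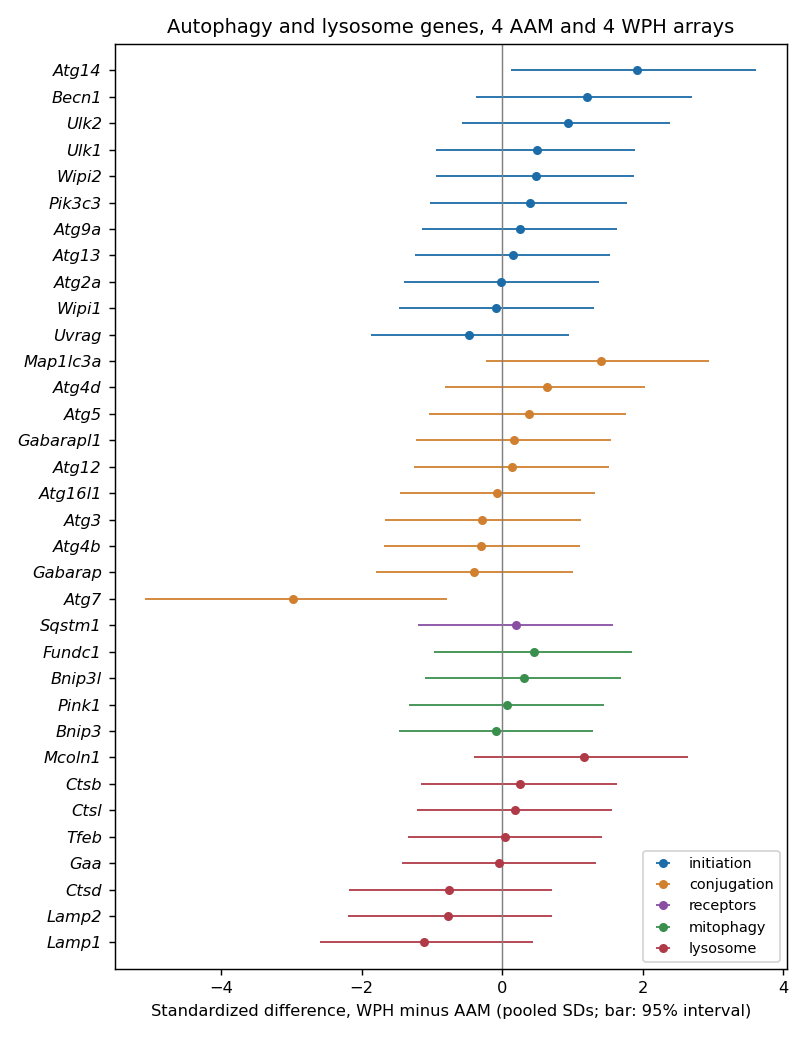
Standardized difference between the meals (x axis, in SDs within meals, positive where WPH was higher) for the 34 measured genes, coloured by role, with 95% intervals as bars (n = 4 arrays per meal). The intervals of Atg7 and Atg14 leave out 0, and those of the other 32 genes include it, and no gene was called after adjustment.

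Among the 11 genes that start the autophagosome, 8 were higher after WPH and 3 lower, with a median of 0.40, but 4 were higher after median centring, 11 after quantile normalization and 5 without AAM replicate 3. Standardized differences ran from -0.48 for Uvrag, a Becn1 partner, to 1.92 for Atg14, the subunit that directs the lipid kinase complex to autophagosome formation. For Atg14, AAM replicates 1 to 4 stood at -22.6, -124, -122 and 15.7 millionths, and WPH replicates 1 to 4 at 107, -9.33, 118 and 36.4 millionths. The WPH arrays were the higher ones apart from replicate 2, which lay below AAM replicate 4, so the meals overlapped. The difference was 126 ± 46.5 millionths (SE, n = 4 per meal), with a standardized interval of 0.13 to 3.62 and an exact two-sided permutation p of 0.0571. Median centring left it at 1.81.

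Becn1, the scaffold of the lipid kinase complex, had AAM values of -0.507, -1.12, 0.139 and -0.387 millionths and WPH values of -0.115, -0.234, 0.350 and 1.88 millionths. AAM replicate 3 was the only AAM array inside the WPH range, WPH replicate 4 was the highest, and the standardized difference was 1.21 (interval -0.37 to 2.705, exact permutation p = 0.10), which turned to -0.49 after median centring. Ulk1, the kinase that receives the mTORC1 and AMPK signals, had 1.01, -0.385, -2.31 and 0.485 thousandths after AAM and 1.03, 1.01, -0.0469 and -0.795 thousandths after WPH. Its lowest array, AAM replicate 3, lay far below all others, and the standardized difference was 0.50 (-0.94 to 1.89). The second Ulk1 probe set had -0.11. Atg13, which holds the Ulk1 complex together, had 0.15, Ulk2, the sister kinase of Ulk1, had 0.94, and Pik3c3, the lipid kinase itself, had 0.40. Atg9a, the membrane protein of the vesicles that seed the autophagosome, had 0.26, and the lipid transfer protein gene Atg2a had -0.01. The phosphoinositide-binding Wipi2 and Wipi1 had 0.48 and -0.09.

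The conjugation genes were divided evenly, 5 of 10 higher, with a median of 0.04 (1 of 10 higher after median centring, and 3 of 10 after quantile normalization, without AAM replicate 2 or without AAM replicate 3). They hold the only members whose meals did not overlap. Atg7, the E1-like enzyme that activates both ubiquitin-like proteins of the pathway, was lower after WPH. Its AAM values were 2.96, -0.347, 4.01 and 2.83 millionths and its WPH values -3.01, -3.55, -0.756 and -2.14 millionths. All 4 WPH arrays lay below all 4 AAM arrays, with AAM replicate 2 the nearest to them. The difference was -4.73 ± 1.12 millionths (SE, n = 4 per meal), the standardized difference -2.98 (-5.09 to -0.79) and the exact permutation p 0.0286, the smallest that 8 arrays allow. Any probe set whose meals do not overlap has this p, so it adds nothing to the lack of overlap. The other Atg7 probe sets pointed the same way with -0.84 and -0.61, and their meals overlapped. After median centring the main probe set had -0.77, where the median over all probe sets was -0.51, and after quantile normalization it had -0.71. Quantile normalization left at most 4 distinct values among the 8 arrays for 85.5% of probe sets. Neither setting can check the direction, since centring lowered most probe sets together and quantile normalization left few distinct values. The same holds for the changes of sign of Becn1, Map1lc3a and the dimmer Atg4b probe set under these settings.

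Atg4b, the protease that trims LC3 and GABARAP before conjugation and removes them again from membranes, had probe sets that disagreed. On the dimmer of its pair, AAM values were -4.06, -9.30, -4.38 and 1.30 millionths and WPH values 3.37, 3.12, 3.499 and 6.45 millionths. The meals did not overlap there, with a standardized difference of 2.52 (0.51 to 4.44, exact permutation p = 0.0286), which turned to -0.17 after median centring. As for Atg7, this p follows from the lack of overlap and adds nothing to it. On the probe set that stands for the gene the values of the meals were interleaved and the standardized difference was -0.30 (-1.69 to 1.11). Over the 8 arrays these Atg4b probe sets had a Pearson's r of 0.08.

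Map1lc3a, a member of the LC3 family that marks the autophagosome membrane, had -4.53, -4.48, -1.64 and 3.11 millionths after AAM and 0.990, 1.02, 1.87 and 3.66 millionths after WPH. AAM replicate 4 was the only AAM array inside the WPH range, and the standardized difference was 1.40 (-0.23 to 2.95, exact permutation p = 0.114). It turned to -0.38 after median centring and -0.31 after quantile normalization. Of the GABARAP family, Gabarap had -0.41 and Gabarapl1 0.17. The ubiquitin-like modifier gene Atg12 had 0.14 on its main probe set and was higher after WPH on all 3 of its probe sets. Its partner Atg5 had 0.38, and Atg16l1, which places the Atg12-Atg5 conjugate on membranes, had -0.07. The E2-like Atg3, which hands LC3 to its lipid, had -0.29, and the protease gene Atg4d had 0.63.

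**Figure D2:**
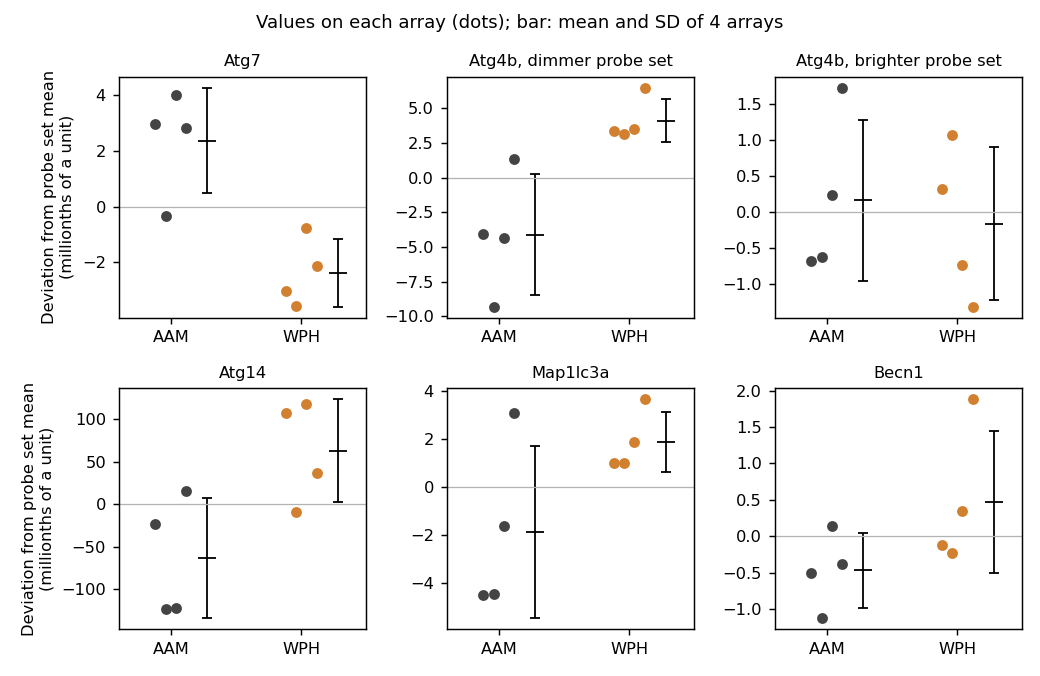
Deviation of each array from the probe set mean (y axis, millionths of a deposited unit) for Atg7, both probe sets of Atg4b, Atg14, Map1lc3a and Becn1, by meal. Dots are arrays, and bars are the mean and SD of 4 arrays; the meals are apart for Atg7 and for the dimmer Atg4b probe set and overlap in the other panels.

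Sqstm1, the receptor that binds ubiquitin-tagged cargo and LC3, was the only receptor measured. Its AAM values were 3.24, -0.461, -4.06 and 0.307 thousandths and its WPH values 1.68, 1.95, -1.01 and -1.65 thousandths. The AAM arrays held both the highest and the lowest value, and the standardized difference was 0.20 (-1.20 to 1.58). WPH was the higher meal on 3 of the 4 Sqstm1 probe sets. The second brightest (level 8.83) pointed the other way with -0.29, and the remaining ones, at levels of 6.38 and 6.27, lay below the array median of 6.66.

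Of the 4 mitophagy genes, 3 were higher after WPH (1 after median centring or quantile normalization), and the standardized differences of their main probe sets lay between -0.09 and 0.45. Bnip3, a mitochondrial outer membrane receptor that is induced in hypoxia and atrophy, had 0.341, -0.0700, -0.421 and 0.198 thousandths after AAM and 0.160, 0.0526, -0.0440 and -0.216 thousandths after WPH. All WPH values fell inside the AAM range, and the standardized difference was -0.09 (-1.47 to 1.30). Its relative Bnip3l had -25.0, -8.29, -0.810 and 19.6 millionths after AAM and -13.1, -12.2, 44.7 and -4.88 millionths after WPH. WPH replicate 3 lay above all others, and the standardized difference was 0.31 (-1.10 to 1.69). The second Bnip3l probe set, at a level of 9.41, had 1.36 (-0.26 to 2.89, exact permutation p = 0.0857), and its meals overlapped. Fundc1, a receptor for damaged or oxygen-deprived mitochondria, had -59.6, -12.8, 44.8 and -10.3 millionths after AAM and -3.14, 19.0, -37.3 and 59.2 millionths after WPH. The lowest array was AAM replicate 1 and the highest WPH replicate 4, with the rest mixed, and the standardized difference was 0.45 (-0.97 to 1.84). Pink1, the kinase that tags depolarized mitochondria, had -2.55, 0.624, 0.714 and 1.04 millionths after AAM and -0.166, -0.316, 0.244 and 0.404 millionths after WPH. AAM replicate 1 lay far below, and without it the standardized difference moved from 0.07 to -2.53, which limma did not call.

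The lysosome genes were split 4 higher and 4 lower (1 higher after median centring, 7 after quantile normalization and 2 without AAM replicate 3). Lamp1 and Lamp2, the major glycoproteins of the lysosomal membrane, had -1.12 and -0.77. For Lamp2 the AAM values were 61.8, -5.69, -18.7 and 11.1 millionths and the WPH values -7.71, 2.48, 7.82 and -51.1 millionths. AAM replicate 1 was the highest and WPH replicate 4 the lowest, the other arrays lay close together, and the interval was -2.20 to 0.71. Ctsd, the aspartic protease cathepsin D, had 9.74, -9.53, 4.69 and 8.67 millionths after AAM and -1.59, -0.174, 4.34 and -16.1 millionths after WPH. The meals overlapped, and the standardized difference was -0.76 (-2.18 to 0.71).

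Ctsl, the cysteine protease cathepsin L, which is induced in wasting muscle, had 1.70, -0.171, -2.12 and 0.138 thousandths after AAM and 0.912, 0.110, 0.388 and -0.958 thousandths after WPH. The WPH values again fell inside the AAM range, and the standardized difference was 0.18 (-1.21 to 1.56). Tfeb, the transcription factor of lysosome and autophagy genes that mTORC1 keeps in the cytoplasm, had -9.55, 5.04, -15.6 and 19.1 millionths after AAM and -2.97, 3.09, 4.63 and -3.76 millionths after WPH. Its meals had nearly the same mean, with a standardized difference of 0.04 (-1.34 to 1.43). The lysosomal calcium channel gene Mcoln1 had 1.16, cathepsin B (Ctsb) 0.25, and Gaa, the acid glucosidase that breaks down lysosomal glycogen, -0.04.

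The members differed from each other in how much their deposited values varied between arrays. Of the 55 probe sets, 9 (16.4%) had an SD over the 8 arrays above 100 millionths of a unit, where 7.73% of all probe sets did. This limit was chosen after the values were seen, and it lies between Bnip3 with 243 and Atg14 with 90.9 millionths. The background was not matched for level: 34 of the 34 genes lay above the array median level, beside 9374 of all 14217 named genes. On main probe sets 21 of the 34 genes had an SD above the median of all probe sets, beside 8293 of the 14217. The 9 probe sets belong to 6 genes: Gabarapl1 (both of its probe sets), Sqstm1 (2 of 4), Ctsl (both), Ulk1 (1 of 2), Atg13 and Bnip3. Gabarapl1 had SDs of 2.57 and 1.93 thousandths, above those of 99% of all probe sets, while Pink1 and Lamp1 had 1.12 and 0.344 millionths. The sources used here do not say how the summary method sets these spreads.

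**Figure D3:**
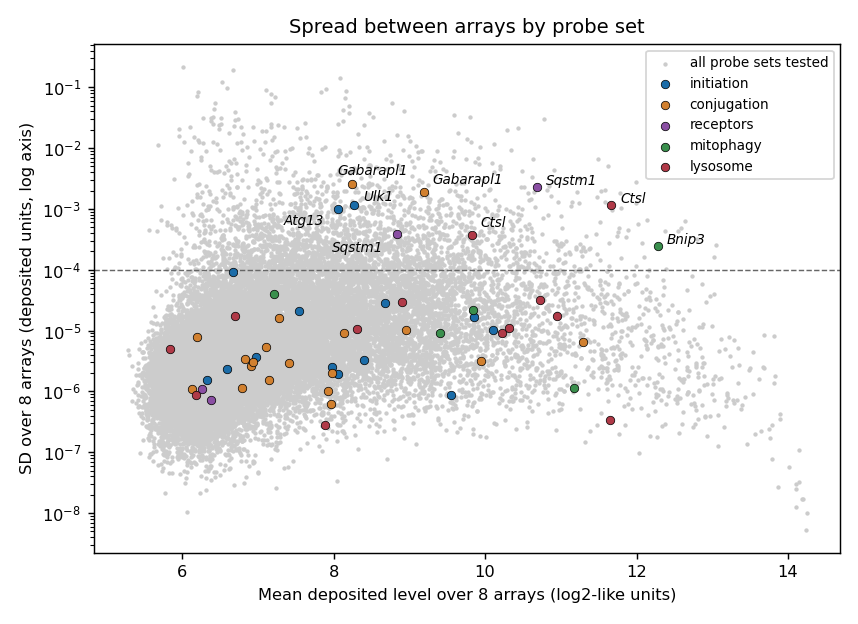
SD over the 8 arrays (y axis, deposited units, log scale) against mean deposited level (x axis, log2-like units) for the 31042 probe sets tested in grey and the 55 probe sets of autophagy and lysosome genes in colour by role. The dashed line marks 100 millionths; the 9 named probe sets lie above it.

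The same arrays were at the extremes for most of these 9 probe sets, and their meals overlapped. Each rat gave 1 array, so rat and array handling cannot be told apart. AAM replicate 3 was the lowest array for 9 of 9, where it was the lowest for 30.5% of all 2401 probe sets above the limit. AAM replicate 1 was the highest for 6 of the 9, beside 25.2%. Both arrays were often at the other extreme too. Of the 2401, AAM replicate 3 was the highest for 24.5% and AAM replicate 1 the lowest for 21.4%. For Gabarapl1, a GABARAP family gene, the AAM values were 2.51, -0.486, -3.68 and 0.936 thousandths and the WPH values 1.52, -0.471, 0.956 and -1.28 thousandths. The range of the AAM arrays thus enclosed that of the WPH arrays. Atg13 had 1.02, -0.0785, -1.76 and 0.498 thousandths after AAM and 1.21, 0.0899, 0.127 and -1.10 thousandths after WPH. With AAM replicate 3 left out, WPH replicate 4 was the lowest for 8 of the 9 probe sets. After subtraction of array medians AAM replicate 3 stayed lowest for 9 of 9, and after quantile normalization it was lowest alone for 4 of 9 and lowest or tied for 7 of 9. For these settings no share over all probe sets above the limit was counted, so the counts are not read as particular to the members.

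Likeness to the main Gabarapl1 probe set over the 8 arrays is given as a description, since the genes were picked for their spread. Pearson's r was 0.98 for the main Ctsl probe set, 0.95 for Atg13, 0.94 for Bnip3, 0.88 for Ulk1 and 0.84 for the main Sqstm1 probe set. These values share the same 8 rats, and without the 2 arrays farthest from the median, AAM replicates 1 and 3, they were 0.90, 0.89, 0.78, 0.60 and 0.39. The relation of the main Sqstm1 probe set to Gabarapl1 thus rested largely on those arrays. The second Sqstm1 probe set above the limit had an r of 0.77, and 0.68 without them. Of the 8 other member probe sets above the limit, 5 had an r above 0.9, beside 9.62% of the 2400 other probe sets above it. The 5 were the other Gabarapl1 probe set, both Ctsl probe sets, Atg13 and Bnip3, so 3 other genes stand behind them. Fbxo32 and Trim63, the ubiquitin ligase genes of muscle atrophy, which are no members and were looked up after the values were seen, had 0.92 and 0.95 (0.76 and 0.87 without the same arrays).

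**Figure D4:**
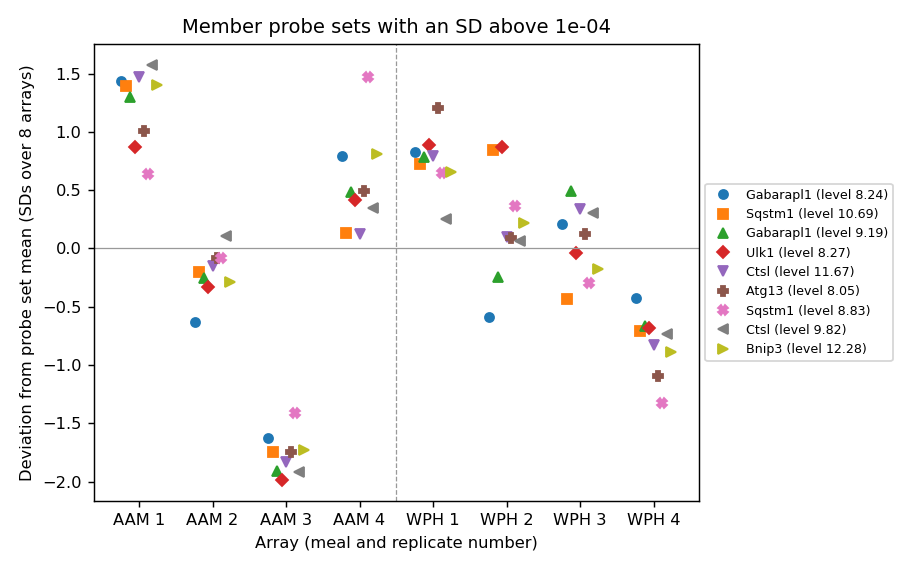
Deviation of each array from the probe set mean (y axis, in SDs over the 8 arrays) for the 9 probe sets with an SD above 100 millionths, by array (x axis). AAM replicate 3 is the lowest array for all 9, and both the highest and the lowest values of most probe sets come from AAM arrays.

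Promoters are shown for members of this wide-spread set and, chosen for contrast, for Lamp1 and Mcoln1, lysosomal members whose main probe set hardly varied. RefSeq promoters of the GRCr8 build were matched for 29 of the 34 measured genes, and the 250 bases before the start were searched on both strands for CACGTG, the core of the element bound by Tfeb, for its longer form TCACGTGA, which contains it, and for TGTTTAC, a core bound by FoxO factors. CACGTG stood in 8 of the 29 promoters (Atg3, Atg5, Bnip3, Ctsd, Gaa, Lamp1, Mcoln1 and Pink1), beside 5.59% of all 33469 promoters. Among the lysosome genes it stood in 4 of 7, and among the 6 genes of the wide-spread set in 1, Bnip3. TCACGTGA stood in 3 of the 29 (Atg3, Ctsd and Lamp1), beside 0.657% of all, and TGTTTAC in 0 of the 29, beside 3.21%. A match is a description of these letters and not a binding site. The sequences run 5′ to 3′ along the gene, with each CACGTG in capitals.
Gabarapl1, chr4:164666082-164666331, plus strand: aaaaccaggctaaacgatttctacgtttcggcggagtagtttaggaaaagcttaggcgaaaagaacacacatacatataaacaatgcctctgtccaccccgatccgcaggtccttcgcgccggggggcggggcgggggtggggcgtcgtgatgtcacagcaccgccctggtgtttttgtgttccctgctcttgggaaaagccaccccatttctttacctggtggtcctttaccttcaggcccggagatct
Ctsl, chr17:769854-770103, plus strand: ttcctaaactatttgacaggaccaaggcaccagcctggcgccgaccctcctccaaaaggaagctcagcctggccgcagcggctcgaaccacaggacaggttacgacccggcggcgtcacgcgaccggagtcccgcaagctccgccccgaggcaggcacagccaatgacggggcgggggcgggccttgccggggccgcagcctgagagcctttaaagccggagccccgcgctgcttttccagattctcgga
Bnip3, chr1:203154963-203155212, minus strand: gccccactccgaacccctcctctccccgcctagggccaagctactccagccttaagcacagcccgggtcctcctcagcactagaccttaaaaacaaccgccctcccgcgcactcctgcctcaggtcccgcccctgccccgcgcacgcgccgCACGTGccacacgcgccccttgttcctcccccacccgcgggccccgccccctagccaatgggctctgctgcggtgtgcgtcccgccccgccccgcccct
Lamp1, chr16:83075064-83075313, minus strand: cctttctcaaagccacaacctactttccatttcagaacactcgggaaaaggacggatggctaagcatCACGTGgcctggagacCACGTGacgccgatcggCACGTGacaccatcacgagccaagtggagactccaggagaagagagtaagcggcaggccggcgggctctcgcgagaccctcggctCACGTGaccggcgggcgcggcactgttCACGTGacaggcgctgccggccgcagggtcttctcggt
Mcoln1, chr12:6358008-6358257, plus strand: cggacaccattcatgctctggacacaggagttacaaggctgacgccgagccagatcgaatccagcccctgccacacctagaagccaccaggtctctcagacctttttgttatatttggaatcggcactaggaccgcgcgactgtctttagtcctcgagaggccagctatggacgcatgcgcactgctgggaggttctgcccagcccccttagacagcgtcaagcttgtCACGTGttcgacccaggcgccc
Lamp1 carried 5 copies between 183 and 38 bases before the start, while its main probe set had an SD of 0.344 millionths. That SD lay at percentile 3.87 of all probe sets, and those of its other probe sets at percentiles 14.4 and 57.6. Mcoln1 carried 1 copy 22 bases before the start and had an SD of 0.281 millionths, and Bnip3 carried 1 copy at 99 bases. Gabarapl1 and Ctsl had no copy in this window. The other lysosome genes with a copy, Gaa and Ctsd, varied more, with main probe set SDs at percentiles 84.0 and 69.2.

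Genes with several probe sets were compared with themselves. Of the 34 genes, 15 had more than 1 probe set, and in 6 of the 15 all probe sets pointed the same way between the meals: Atg7, Atg12, Bnip3l, Gaa, Gabarapl1 and Lamp2. Over all genes, the probe sets pointed the same way in 58.4% of genes with 2 and 33.9% of genes with 3, which for the members' numbers of probe sets comes to 7.38 of 15, so the members' count was no higher than that of other genes. The 15 genes gave 28 pairs of probe sets, whose values over the 8 arrays had a median Pearson's r of 0.29, beside 0.31 over 9597 such pairs of all genes. Over all genes, agreement was closer where the spread was wider. Where the smaller SD of a pair was up to 1 millionth, the median r was 0.21 over 6 member pairs and 0.10 over all genes. Where it was between 1 and 10 millionths, it was 0.32 over 17 member pairs and 0.28 over all genes, and between 10 and 100 millionths it was 0.44 over 2 member pairs and 0.78 over all genes.

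Above 100 millionths the member pairs were Gabarapl1 with an r of 0.96, Ctsl with 0.97 and Sqstm1 with 0.78, where the median over all genes was 0.95 between 100 and 1000 millionths and 0.98 above. Over the 28 pairs the exact permutation p of Pearson's r was 4.71e-04 for Gabarapl1 and 7.69e-04 for Ctsl (adjusted p = 0.0108 for both), and no other pair passed. Their Spearman's rho was 0.90 and 0.88 (exact permutation p = 0.00456 and 0.00724, adjusted p = 0.101 for both). Without the 2 arrays farthest from the median, r was 0.89 for Gabarapl1 and 0.85 for Ctsl. The main Atg7 probe set had an r of 0.71 and 0.40 with the other Atg7 probe sets, with adjusted permutation p of 0.203 and 0.707.

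**Figure D5:**
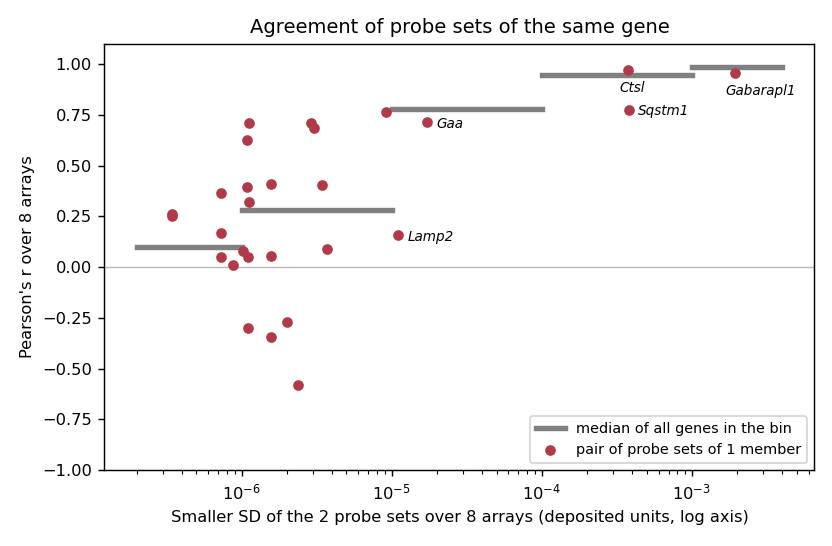
Pearson's r over 8 arrays between probe sets of the same gene (y axis) against the smaller of their SDs (x axis, deposited units, log scale). Red points are the 28 pairs of the members and grey bars are the medians of all genes in each bin; r is above 0.75 for the pairs of Gabarapl1, Ctsl and Sqstm1 with SDs above 100 millionths and between -0.58 and 0.77 for pairs with smaller SDs.

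Other genes of the pathway gave no call by limma either, 0 of 104 measured of 119 genes in 8 lists. Other genes of initiation were 6 higher and 5 lower after WPH (median 0.20), other conjugation genes 3 and 1 (0.70), other cargo receptors 3 and 3 (0.05), and other mitophagy genes 6 and 4 (0.24). Genes of autophagosome-lysosome fusion were 4 higher and 8 lower (-0.21), subunits of the vacuolar ATPase, which acidifies the lysosome, 3 and 12 (-0.40), other lysosomal hydrolases and membrane proteins 10 and 18 (-0.21), and transcriptional and nutrient regulators 7 and 11 (-0.20). The median over all genes was -0.06. These directions also moved with scaling: after median centring every list had more genes lower than higher, and after quantile normalization vacuolar ATPase subunits were 7 higher and 8 lower, fusion genes 7 and 5, lysosomal hydrolases and membrane proteins 16 and 12, other initiation genes 4 and 7, and other cargo receptors 1 and 5. After the same normalization other conjugation genes were 3 and 1, other mitophagy genes 8 and 2, and regulators 9 and 9. Without AAM replicate 3, lysosomal hydrolases and membrane proteins were 14 and 14, and cargo receptors 0 and 6. The meals did not overlap for 3 of the 104 genes (2.88%), beside 2.23% of all probe sets. Ctsc, the dipeptidyl peptidase cathepsin C, had a standardized difference of 2.93, Fkbp8, a mitochondrial mitophagy receptor, had -2.99, and Atp6v0c, the proton-binding subunit of the vacuolar ATPase, had -2.39.

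Each list was also scored per array, as the mean over genes of the deviation in SDs over the 8 arrays. In 2 of the 8 lists the highest and lowest arrays were those of most of the 9 wide-spread probe sets. Other initiation genes were highest in AAM replicate 1 (0.75) and lowest in AAM replicate 3 (-0.86), and so were other cargo receptors (1.18 and -1.24). In 3 of the 8 AAM replicate 3 was the highest instead: other mitophagy genes (0.55, with AAM replicate 1 the lowest at -0.65), vacuolar ATPase subunits (0.47), and lysosomal hydrolases and membrane proteins (0.63). After median centring AAM replicate 2, the array with the lowest median, was the highest for all 8 lists, so these extremes rest on the scale as deposited. No marker list had AAM replicate 1 highest and AAM replicate 3 lowest. In AAM replicates 1 and 3 they were -0.47 and -0.57 for general muscle fibre markers, -0.27 and -0.59 for fast fibre, -0.08 and 0.22 for slow fibre, and 0.85 and 0.36 for the 10 macrophage markers. Fibroblast and matrix markers had -0.24 and 0.65, adipocyte markers 1.14 and 0.66, endothelium markers -0.02 and 0.45, neutrophil markers -0.20 and -0.95, satellite cell markers -1.39 and 0.01, and skin and epithelium markers 0.06 and 0.18. WPH replicate 4, the next lowest array for most of the 9 probe sets, was the highest for 5 of the 10 marker lists: general muscle fibre (0.96), fast fibre (1.24), macrophage (0.94), neutrophil (0.77), and fibroblast and matrix (1.37). It had -1.25 for slow fibre markers. Each gene is divided by its own SD, so markers with hardly any spread count in full, such as Acta1 (SD 5.35e-09) and Tnnc2 (1.28e-08). Of the 4 measured neutrophil markers, 0 lay above the array median level. Between the meals 8 of 9 fast fibre markers were higher after WPH (median 0.62), where 46.1% of all named genes were. After median centring 1 of 9 was higher, and after quantile normalization 6 of 9. Of the slow fibre markers 5 of 6 were lower (-0.43), also under both of these alternatives, and limma called none of either list. The summed level of the macrophage markers ran from 83.187 to 83.1885 over the AAM arrays and from 83.1869 to 83.1883 over the WPH arrays. The part of these cells in the values was not tested, and in whole muscle fewer cells of a type and less RNA per cell cannot be told apart.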

How the data were processed

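Expression in epitrochlearis muscle was measured on 8 Affymetrix 3' arrays from 100 ng of total RNA each, per the labels' protocols. The authors deposited 1 log2-like level per probe set and array; the submitters' processing notes name R 2.7.2. The sources used here do not give the background correction, normalization or summary, which leaves scale and centring unknown. Groups came from the sample descriptions. No 2 arrays held the same values. Of 31099 probe sets, 57 controls were left out. Symbols came from the platform annotation: 20826 probe sets had 1 symbol, 436 several and 9780 none, and 20758 gene IDs matched the GRCr8 gene table.

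Meals were compared in R 4.3.3 with the linear models of limma 3.58.1 (eBayes moderation with a prior df of 0.549, two-sided tests), using Benjamini-Hochberg adjustment over 31042 probe sets and a threshold of 0.05; the procedure was tested on simulated arrays. For the intervals a noncentral t distribution (6 degrees of freedom) was inverted. Exact permutation tests used the 35 splits of the arrays, or all orders of 8 arrays for a correlation. The number of arrays limits the precision. Values on every array are given for the 2 members of each role with the smallest limma p, for members whose meals did not overlap, for members most used to follow autophagy in muscle, and, chosen after values were seen, for those with an SD above 100 millionths. Of each other list, only genes among its 2 smallest p were named. Members and lists were chosen with earlier results of these data known. Alternatives were quantile normalization, median centring, dim probe sets left out, the replicate number as a block, each array left out, AAM replicate 3 with WPH replicate 4 left out, array weights, a trended robust prior, a fourth-root scale (constant 0.01), a threshold of 0.1 and the median over the probe sets of a gene.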

Additional observations from a re-analysis of the deposited data

Results flagged for a closer look

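Dixon's ratio, the gap of an extreme array to its neighbour over the range of the 4 arrays of a meal, was above its 95% critical value in 6 of the 110 groups formed by 55 probe sets and both meals. Chance gives about 1 in 20, or 5.5. Pink1 was low in AAM replicate 1 (ratio 0.883), as was the dimmer Wipi1 probe set (0.875). A dim Lamp1 probe set was low in AAM replicate 4 (0.886). The main Bnip3l probe set was high in WPH replicate 3 (0.857), and the dimmer Atg4b probe set was high in WPH replicate 4 (0.885). The dimmer Ulk1 probe set was low in WPH replicate 1 (0.890).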

How the results depend on the processing

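No member probe set was called under any alternative that was run, and over all probe sets calls appeared only with quantile normalization, 5 of 31042. Quantile normalization left at most 4 distinct values among the 8 arrays for 85.5% of probe sets. Array medians differed by up to 66.7 millionths of a unit, well above the usual SD of a probe set, so median centring moves most probe sets together: it gave 8 members higher instead of 21 and a median of -0.44 instead of 0.16, while that of all probe sets moved from -0.04 to -0.51. Leaving out 1 array gave 13 to 25 members higher, the lowest without AAM replicate 3, and medians from -0.15 to 0.38. Under median centring the standardized difference changed sign for Becn1 (-0.49), Bnip3l (-0.17), Map1lc3a (-0.38), Pink1 (-0.53), Tfeb (-0.44) and the dimmer Atg4b probe set (-0.17). Under quantile normalization it did so for Bnip3l (-1.0), Ctsd (0.46), Lamp2 (0.71), Map1lc3a (-0.31) and Pink1 (-0.71). Without AAM replicate 3 and WPH replicate 4 together it did so for Atg13 (-0.0052), Atg4b (0.067), Ctsl (-0.11), Gabarapl1 (-0.25), Sqstm1 (-0.086) and Tfeb (-0.31), and with the median over probe sets for Atg4b (1.11). Leaving out 1 array, the ranges that crossed 0 were -0.49 to 0.55 for Atg13, -0.73 to 0.22 for Atg4b, -0.93 to 0.37 for Bnip3, -0.44 to 0.66 for Bnip3l, -0.50 to 0.84 for Ctsl, -0.59 to 0.70 for Gabarapl1, -2.53 to 0.37 for Pink1, -0.42 to 0.80 for Sqstm1, -0.48 to 0.93 for Tfeb and -0.088 to 0.91 for Ulk1. Those of Atg7 (-5.48 to -2.65) and Atg14 (1.63 to 2.57) kept their sign. So did those of the dimmer Atg4b probe set (2.21 to 4.52), Map1lc3a (1.11 to 3.81) and Becn1 (0.92 to 1.52). The ranges of Ctsd (-1.57 to -0.35), Lamp2 (-1.14 to -0.34) and Fundc1 (0.058 to 1.03) did not cross 0 either. The cause of these changes was not tested. With the replicate number as a block, 0 probe sets were called and 21 members were higher (median 0.18); same-numbered arrays correlated by 0.157, 0.134, 0.064 and -0.071, so the numbers were not taken as pairs.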
